A study of Mus musculus with 32 samples.

Results

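The mitochondrial carriers of the Slc25a genes were examined in mouse gastrocnemius, a calf muscle in which fast fibres prevail. Every row whose gene symbol was Slc25a followed by a number was taken, which gave 46 of the 16634 rows of the expression table. Of these, 37 carriers passed a filter of 1 FPKM or more in 4 or more of the 32 libraries, as did 11975 genes in all, and were tested. FPKM is the number of fragments scaled to transcript length and to the mapped total of the library, so levels can be compared between genes. The 32 mice were 10 weeks old, of a mixed genetic background, and made up 8 groups of 4. Mutant mice carried Sf1-Cre and floxed Sirt1 alleles (Sf1-Cre; Sirt1loxP/loxP), a cross that directs the loss of the deacetylase SIRT1 to SF1 neurons of the hypothalamus. Controls were Sirt1loxP/loxP mice, so the Cre transgene and the loss of SIRT1 cannot be told apart here. SF1 is also made in the adrenal gland, the gonads and the pituitary, and muscle RNA does not check the deletion. Each genotype was sampled at Zeitgeber times (ZT, in hours) 0, 6, 12 and 18, and the question is whether these neurons affect the daily course of RNA in muscle.

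Carriers of this family are folded proteins of the mitochondrial inner membrane that exchange metabolites between the cytosol and the matrix. Their best known substrates are ADP and ATP, phosphate, the acids of the malate-aspartate shuttle, acylcarnitines, amino acids, nucleotides and cofactors. In muscle the export of ATP by the ADP/ATP carrier links respiration to contraction. Most carriers are made in the cytosol and inserted through the TIM22 translocase, and a few members sit in the outer membrane or in peroxisomes.

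The libraries held muscle RNA, with creatine kinase Ckm between 15672 and 22140 FPKM. Relative depth, read from the steps of low values, ranged from 0.807 to 1.34, and absolute depth is unknown. No 2 libraries were identical, and correlations between libraries lay between 0.958 and 0.993. All 6 clock genes used as a reference had a 24 h rhythm in each genotype. In 1 library, control ZT18 numbered 0 in the table, the clock activator Arntl stood at 8.84 FPKM, against 1.12, 1.51 and 3.53 in the other controls of that time. Its Dbp value was 23.5 FPKM, against 47.6, 84.1 and 95.8. Rhythm results are therefore also given without it for Slc25a36, for the smaller rhythms and for controls alone.

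Slc25a RNA was dominated by a few carriers. Slc25a4, the ADP/ATP carrier of heart and muscle, stood at 3365 ± 577 FPKM (SD, n = 32) and made up 70.6% ± 1.83 of the summed FPKM of all 46 carriers. Slc25a3, which imports phosphate, followed at 618 ± 76.1 FPKM. Next came the aspartate/glutamate carrier Slc25a12 at 208 ± 18.1 FPKM and the oxoglutarate/malate carrier Slc25a11 at 141 ± 26.1 FPKM, both of the malate-aspartate shuttle. These 4 carriers together held 91.1% ± 1.26 of the family's FPKM. The lowest Slc25a4 value, 2765 FPKM, was above the highest Slc25a3 value, 885 FPKM. The ranges of Slc25a12 (167 to 265 FPKM) and Slc25a11 (105 to 226 FPKM) overlapped. The order below them was the carnitine/acylcarnitine carrier Slc25a20 (53.2 ± 8.16 FPKM), the glutathione carrier Slc25a39 (39.0 ± 6.61), the ATP-Mg/phosphate carrier Slc25a25 (25.9 ± 20.8) and the NAD carrier Slc25a51 (25.1 ± 3.42). Slc25a25, Slc25a51 and the second ADP/ATP carrier Slc25a5 (25.1 ± 6.48) differed by less than their spread.

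Pairs of carriers with the same substrates were unequal. Slc25a4 exceeded Slc25a5 by a ratio of 141 ± 37.1 (n = 32), with a range from 80.1 to 217. Slc25a12 exceeded Slc25a13, the aspartate/glutamate carrier best known from liver, by a ratio of 721 ± 293. For the glutathione carriers Slc25a39 and Slc25a40 the ratio was 11.6 ± 2.59. For the mitoferrins Slc25a28 and Slc25a37, which carry iron, it was 2.78 ± 0.393. All 4 ratios were above 1 in every library.

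The 9 carriers below the filter had mean levels from 0.0295 to 0.327 FPKM. They were Slc25a13, Slc25a53, Slc25a2, Slc25a18, Slc25a48, Slc25a43, Slc25a31, Slc25a41 and Slc25a21. The last 6 were listed at 0 in 1, 8, 3, 9, 10 and 16 libraries, in that order, while no carrier that was tested was listed at 0. Slc25a31 is the ADP/ATP carrier of the testis and Slc25a18 a glutamate carrier best known from brain. The row of Slc25a2 spanned 911.6 kb and overlapped 61 other coding genes, so its value is uncertain.

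**Figure D1:**
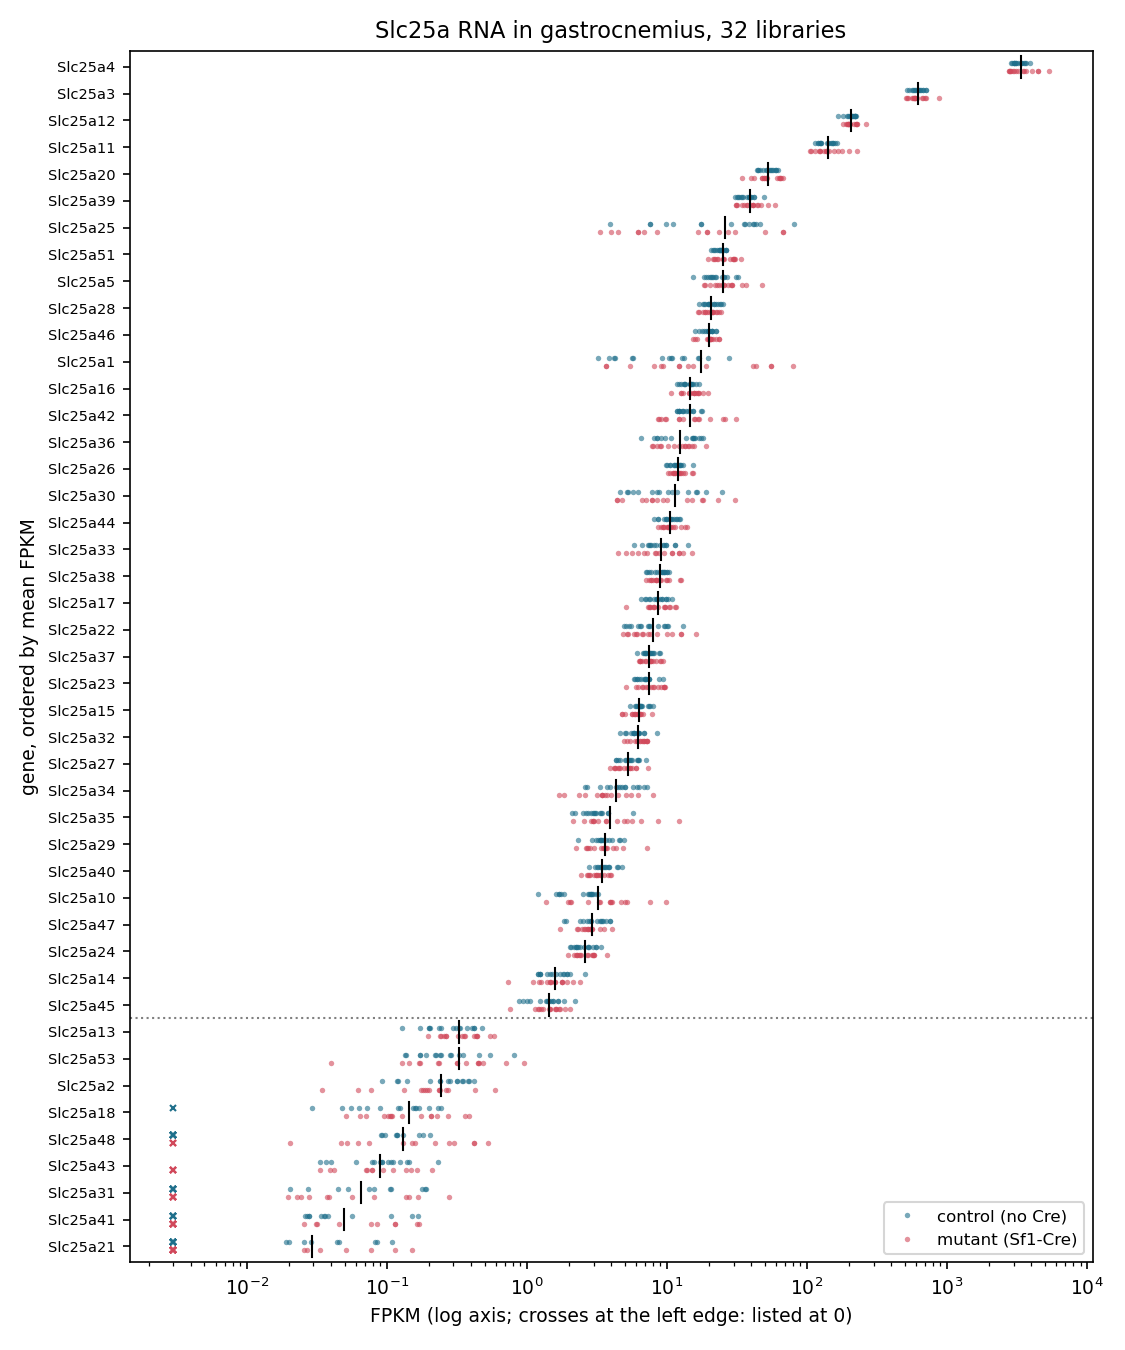
FPKM of the Slc25a genes (log axis), 1 of the 46 not drawn, with 1 point per library, coloured by genotype, with the mean of 32 libraries as a black bar. Crosses mark values listed at 0, and the dotted line parts the tested carriers from the 9 below the filter. Slc25a4 lies above all others, and Slc25a25 and Slc25a1 are the widest among the tested carriers, with the highest library 24.1 and 24.6 times the lowest.

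Most carriers varied little between mice, and a small group varied with the hour. A 24 h rhythm over both genotypes was called for 7 of 37 carriers, 18.9% of them, against 11.4% of all genes tested (limma F test of the cosine and sine terms, adjusted by Benjamini-Hochberg over all genes, calls under 0.05). These were the nucleotide carriers Slc25a36 and Slc25a33, the ATP-Mg/phosphate carrier Slc25a25, the uncoupling-protein-like carrier Slc25a30, the carrier of basic amino acids Slc25a29, the glutamate carrier Slc25a22, and Slc25a34, whose substrate is not agreed. None of the 4 most abundant carriers was among them. The amplitudes below run from the mean to the peak on log2(FPKM + 1), with the standard error of the cosine and sine coefficients.

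Slc25a36, which carries pyrimidine nucleotides, was high in the light phase. At ZT0 the 8 libraries ranged from 12.9 to 17.6 FPKM (median 15.5), and at ZT6 from 13.8 to 19.0 (median 15.1). At ZT12 they ranged from 7.90 to 12.2 FPKM (median 9.91), and at ZT18 from 6.51 to 15.8 (median 8.51). The values at ZT12 did not overlap those at ZT0 or ZT6. At ZT18 the highest value came from the control library with the unusual clock genes, and the other 7 lay between 6.51 and 9.08 FPKM. The amplitude was 0.47 ± 0.05 with a peak at ZT 3.53 (adjusted p = 3.82e-06 with limma), near that of Arntl at ZT 4.12. Without that library it was 0.52 (adjusted p = 2.14e-09). Levels fell by 0.56 ± 0.11 on the log2 scale from ZT0 to ZT12 (adjusted p = 0.00185) and by 0.74 ± 0.11 from ZT6 to ZT18 (adjusted p = 3.21e-05).

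Slc25a25, a carrier of ATP-Mg and phosphate that is regulated by calcium, had the largest amplitude of the family. At ZT0 its 8 libraries lay between 3.35 and 11.1 FPKM (median 7.20). The ranges were 4.03 to 36.4 FPKM (median 17.5) at ZT6, 9.92 to 43.3 (median 29.0) at ZT12 and 19.2 to 80.9 (median 48.1) at ZT18. Every library of ZT18 was above every library of ZT0. The amplitude was 1.26 ± 0.16 with a peak at ZT 14.9 (adjusted p = 1.49e-05 with limma), a 5.77-fold span from trough to peak on the log2(FPKM + 1) scale. Levels rose by 1.81 ± 0.33 from ZT0 to ZT12 (adjusted p = 7.90e-04) and by 1.76 ± 0.33 from ZT6 to ZT18 (adjusted p = 6.24e-04). Among the reference clock genes, Ciart had a fitted peak at ZT 14.7 and Dbp at ZT 15.7. Their means were highest at ZT12 (7.19 and 71.6 FPKM, against 4.61 and 66.2 at ZT18), whereas Slc25a25 was highest at ZT18. Fitted peaks rest on 4 times and are given without an error.

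Slc25a30, first described in kidney and related in sequence to the uncoupling proteins, was highest at ZT18. Its 8 libraries ranged from 14.1 to 30.5 FPKM at ZT18 (median 18.6), above all libraries of ZT12, which ranged from 4.38 to 11.7 (median 6.67). At ZT0 they ranged from 5.19 to 18.1 FPKM (median 9.25) and at ZT6 from 4.80 to 16.4 (median 8.17), and both overlapped ZT18. The amplitude was 0.63 ± 0.11 with a peak at ZT 19.3 (adjusted p = 5.03e-04 with limma). Levels rose by 1.19 ± 0.21 on the log2 scale from ZT6 to ZT18 (adjusted p = 4.38e-04). A single high time also enters the 12 h component, which was -0.61 ± 0.15 for Slc25a30 and did not pass the test (adjusted p = 0.117).

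The other 4 rhythms were smaller, and the values of all times overlapped in each. Slc25a33, the second carrier of pyrimidine nucleotides, had medians of 6.81 FPKM at ZT6 and 11.2 at ZT18 and an amplitude of 0.31 ± 0.08 with a peak at ZT 16.9 (adjusted p = 0.0175). Its peak lay on the other side of the day from that of Slc25a36. Slc25a34 had medians of 3.06 and 5.31 FPKM at the same times and an amplitude of 0.33 ± 0.09 with a peak at ZT 17.1 (adjusted p = 0.0350). Slc25a22 had medians of 5.96 FPKM at ZT6 and 9.35 at ZT12 and an amplitude of 0.34 ± 0.09 with a peak at ZT 14.9 (adjusted p = 0.0224). Slc25a29 was highest at ZT0, with a median of 4.25 FPKM against 3.03 at ZT12, and peaked at ZT 22.5 with an amplitude of 0.22 ± 0.05 (adjusted p = 0.0197). Without control ZT18 library 0, all 4 kept their calls (adjusted p from 0.00971 to 0.0299 with limma). Slc25a34 lost its call in 8 of the 32 fits that left out 1 library (adjusted p up to 0.0804). Slc25a22 and Slc25a34 lost theirs with the slow-fibre score as a covariate (adjusted p = 0.0842 and 0.0556), and Slc25a29 with adipocyte and lymphocyte scores (adjusted p = 0.0560).

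Peaks of the 7 carriers thus fell at 2 parts of the day, with Slc25a36 in the light phase and the other 6 between ZT 14.9 and ZT 22.5. Endothelial marker genes also moved with time: 5 of 8 had a 24 h rhythm and all 8 were lower at ZT12 than at ZT0, with a median of -0.37 on the log2 scale. Their summed FPKM ranged over libraries from 401 to 458 in the ZT0 controls and from 286 to 298 in the ZT12 controls. The mutant ranges were 322 to 527 and 278 to 396, and no endothelial marker was at 0. The part of this in the rhythms of the carriers was not tested. Slow-fibre markers went the other way, with all 11 higher at ZT12 than at ZT0 (median 0.40 on the log2 scale) and none called (smallest adjusted p = 0.0768). Their summed FPKM ranged from 1092 to 2178 in the ZT0 controls and from 1772 to 2827 in the ZT12 controls, and from 836 to 1450 and 876 to 2511 in the mutants. With their score as a covariate, 5 of the 7 carriers were called. In bulk tissue, fewer cells of a type and less RNA per cell cannot be told apart. Neither harvest day nor sequencing pool is known for a library, and an effect shared by a time point cannot be told apart from time. In the labels, ZT0 and ZT12 share a set of sequencing indexes, and so do ZT6 and ZT18.

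**Figure D2:**
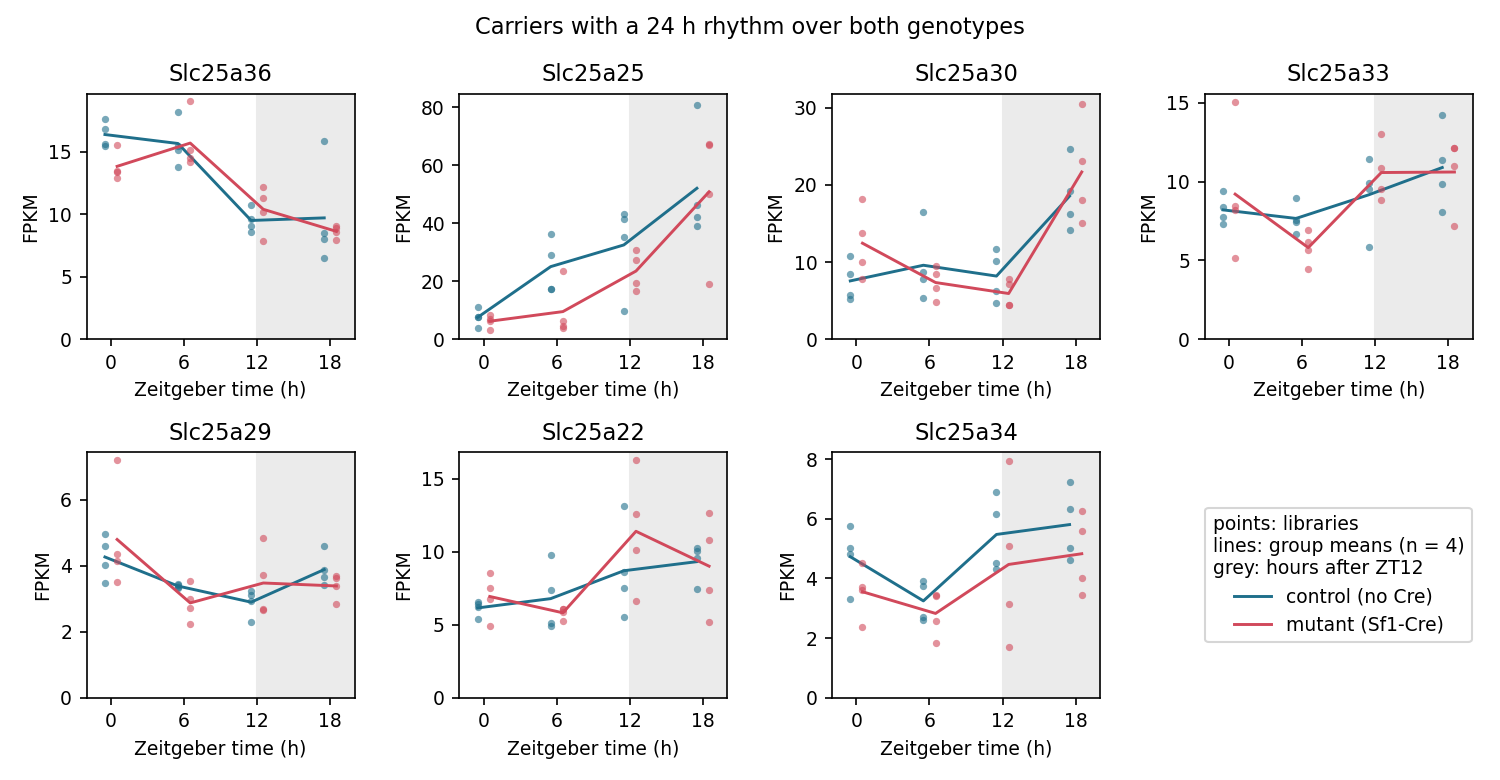
FPKM of the 7 carriers with a 24 h rhythm over both genotypes, against Zeitgeber time in hours. Points are libraries (4 per genotype and time), lines join the group means, and grey marks the hours from ZT12 on. Slc25a36 is high at ZT0 and ZT6, Slc25a25 climbs from ZT0 to ZT18, and Slc25a30 is high at ZT18.

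In controls alone, 2 carriers had a rhythm, 5.41% of those tested against 5.55% of all genes. These were Slc25a36, with an amplitude of 0.51 ± 0.08 (adjusted p = 5.66e-04 with limma), and Slc25a25, with 1.06 ± 0.23 (adjusted p = 0.0156, and 0.0616 with the slow-fibre score as a covariate). Without control ZT18 library 0, 3 carriers and 894 genes in all were called in controls, against 665 genes with it. The control amplitudes were then 0.60 for Slc25a36 (adjusted p = 6.21e-07) and 1.07 for Slc25a25 (adjusted p = 0.01575). In mutants 3 carriers had a rhythm, or 8.11% against 3.92% of all genes. Slc25a25 had an amplitude of 1.53 ± 0.23 there (adjusted p = 5.01e-04), Slc25a36 of 0.44 ± 0.08 (adjusted p = 0.00255) and Slc25a30 of 0.85 ± 0.15 (adjusted p = 0.00269). In controls the amplitude of Slc25a30 was 0.48 ± 0.15 (adjusted p = 0.129). The difference of the rhythms between genotypes did not pass the test for any carrier or any other gene (0% called). For Slc25a30 that difference was 0.56 ± 0.21 (adjusted p = 0.880) and for Slc25a25 it was 0.73 ± 0.33 (adjusted p = 0.886). At an unadjusted p under 0.05, 3 carriers, or 8.11%, and 640 of all genes, or 5.34%, differed.

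Single times were also contrasted over both genotypes. From ZT0 to ZT12, 3 carriers changed, or 8.11%, against 5.71% of all genes. Slc25a25 rose, and Slc25a36 and Slc25a29 fell, the last by 0.40 ± 0.11 on the log2 scale (adjusted p = 0.0228 with limma). The call of Slc25a29 was lost in 5 of the fits that left out 1 library (adjusted p up to 0.0552), with quality weights for libraries (adjusted p = 0.0863) and with adipocyte and lymphocyte scores as covariates (adjusted p = 0.0555). From ZT6 to ZT18, 5 carriers changed, or 13.5%, against 7.23% of all genes. Slc25a25 and Slc25a30 rose, as did Slc25a33 by 0.60 ± 0.15 (adjusted p = 0.0122) and Slc25a34 by 0.64 ± 0.18 (adjusted p = 0.0219), and Slc25a36 fell. Slc25a34 lost this call in 3 of the fits that left out 1 library (adjusted p up to 0.0579). The 12 h component contrasts ZT0 and ZT12 with ZT6 and ZT18. The index sets have the same split, so index set and time cannot be told apart in this component. It was called for no carrier and for 0.0668% of all genes. At an unadjusted p under 0.05 it held 6 carriers, or 16.2%, close to the 14.1% of all genes, led by Slc25a30, Slc25a25 (-0.91 ± 0.23, adjusted p = 0.117) and the folate carrier Slc25a32 (-0.15 ± 0.05, adjusted p = 0.226).

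Sequence around the starts of these genes was read from the RefSeq promoter table (build GRCm38.p6), which held 45 windows for 35 of the 46 carriers. The 250 bases before each start were searched on both strands for the E-box CACGTG, bound by the clock activators, for the D-box TTATGTAA, bound by factors such as DBP, and for the cyclic AMP response element TGACGTCA. The last motif was added after the values were seen, and no match of these motifs overlapped another in the windows shown. The E-box was present in 8 carrier windows of 7 genes, or 17.8% of the 45, against 6.02% of 32851 windows in all. Of these genes, Slc25a33 and Slc25a36 had a rhythm, while Slc25a1, Slc25a14 and Slc25a15 were not called. The others, Slc25a13 and Slc25a31, were below the filter and not tested. The D-box was in none of the carrier windows and in 0.819% of all. The cyclic AMP response element was in 2 carrier windows, or 4.44%, against 1.55% of all, and these belonged to the 2 rhythmic carriers with the smallest p, Slc25a25 and Slc25a36. A match is a description of the letters and not of binding. The windows are shown for the 3 rhythmic carriers with a match, 5′ to 3′ on the strand of the gene, with the motifs in capitals. In Slc25a25 (chr2:32424067-32424316, minus strand, 1 of 3 windows of the gene) the response element begins 150 bases before the start. In Slc25a36 (chr9:97111042-97111291, minus strand) the E-box begins 187 and the response element 161 bases before the start. In Slc25a33 (chr4:149774268-149774517, minus strand) the E-box begins 8 bases before the start.
Slc25a25: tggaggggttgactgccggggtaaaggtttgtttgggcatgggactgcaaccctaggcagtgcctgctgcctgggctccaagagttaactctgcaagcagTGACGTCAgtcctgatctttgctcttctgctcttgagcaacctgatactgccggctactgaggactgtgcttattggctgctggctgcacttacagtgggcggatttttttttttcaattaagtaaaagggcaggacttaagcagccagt
Slc25a36: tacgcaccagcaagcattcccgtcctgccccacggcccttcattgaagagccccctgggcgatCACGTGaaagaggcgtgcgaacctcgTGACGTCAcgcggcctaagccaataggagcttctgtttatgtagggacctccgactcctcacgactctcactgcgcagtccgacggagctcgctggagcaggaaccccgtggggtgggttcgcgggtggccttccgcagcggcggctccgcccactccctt
Slc25a33: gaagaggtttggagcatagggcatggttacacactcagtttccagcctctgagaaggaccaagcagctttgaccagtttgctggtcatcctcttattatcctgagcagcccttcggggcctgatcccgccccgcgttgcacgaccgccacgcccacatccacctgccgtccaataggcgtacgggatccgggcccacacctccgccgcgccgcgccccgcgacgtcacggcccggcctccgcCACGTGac
The windows of Slc25a22, Slc25a29, Slc25a30 and Slc25a34 held none of the 3 motifs.

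No carrier passed the test of a genotype difference. Over all times 0 of 37 carriers were called (limma, adjusted by Benjamini-Hochberg over all genes), against 0.0251% of all genes. At an unadjusted p under 0.05 there were 7 carriers, or 18.9%, and 776 of all genes, or 6.48%. The smallest p belonged to the dicarboxylate carrier Slc25a10, the glutathione carrier Slc25a40 and the ornithine carrier Slc25a15. Slc25a10 was at 2.42 ± 0.659 FPKM in controls (SD, n = 16) and 4.06 ± 2.18 FPKM in mutants (SD, n = 16), a difference of 0.48 ± 0.16 on the log2 scale (SE, adjusted p = 0.756). Slc25a40 stood at 3.67 ± 0.543 and 3.20 ± 0.458 FPKM, with a difference of -0.15 ± 0.05, and Slc25a15 at 6.60 ± 0.655 and 6.02 ± 0.768, with a difference of -0.12 ± 0.05, both at the same adjusted p. The ranges of the genotypes overlapped in all 3. Slc25a4 stood at 3268 ± 308 FPKM in controls and 3463 ± 757 in mutants, and the spread was wider in the mutants.

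At single times, 0 carriers were called, against 0.0251% of all genes at ZT12 and 0.0167% at each of ZT0, ZT6 and ZT18. The sign of the differences nevertheless varied with time over the family. At ZT0, 28 of 37 carriers were higher in mutants (median 0.11 on the log2 scale, -0.01 over all genes), and at ZT6 only 9 were, with a median of -0.16 (-0.03 over all genes). At ZT12, 30 were higher (median 0.13, 0.06 over all genes), and at ZT18 18 were (median -0.01 for both). With quantile normalisation or 1 scaling factor per library the counts stayed at 28 and 9 at ZT0 and ZT6 and were 27 at ZT12. They were 19 at ZT18, where the sign of the carriers' median turned (0.01 with both scalings). Of all genes, 48.3% were higher at ZT12 with quantile normalisation and 50% with 1 scaling factor. In 2 mutant libraries the fast-fibre score, a mean log2(FPKM + 1) of 10 markers, stood apart, at 11.8 in ZT0 library 2 and 12.0 in ZT12 library 1, against 12.4 to 13.03 in the other 30. The ZT0 library also held the highest values of Slc25a4, Slc25a3, Slc25a12 and Slc25a11 (5337, 885, 265 and 226 FPKM). The fast-fibre markers did not spread alike: over the 32 libraries Tnnt3 ranged from 569 to 33494 FPKM and Ckm from 15672 to 22140. Which markers set the 2 libraries apart was not tested. Without both libraries, an alternative added after the data were seen, 22 carriers were higher in mutants at ZT0 (median 0.03, -0.03 over all genes) and 33 at ZT12 (median 0.13, 0.06 over all genes), and 0 carriers were called at either time. In that fit 42.5% of all genes were higher at ZT0 and 65.4% at ZT12. These are counts of directions, and carriers of the same libraries are not independent.

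**Figure D3:**
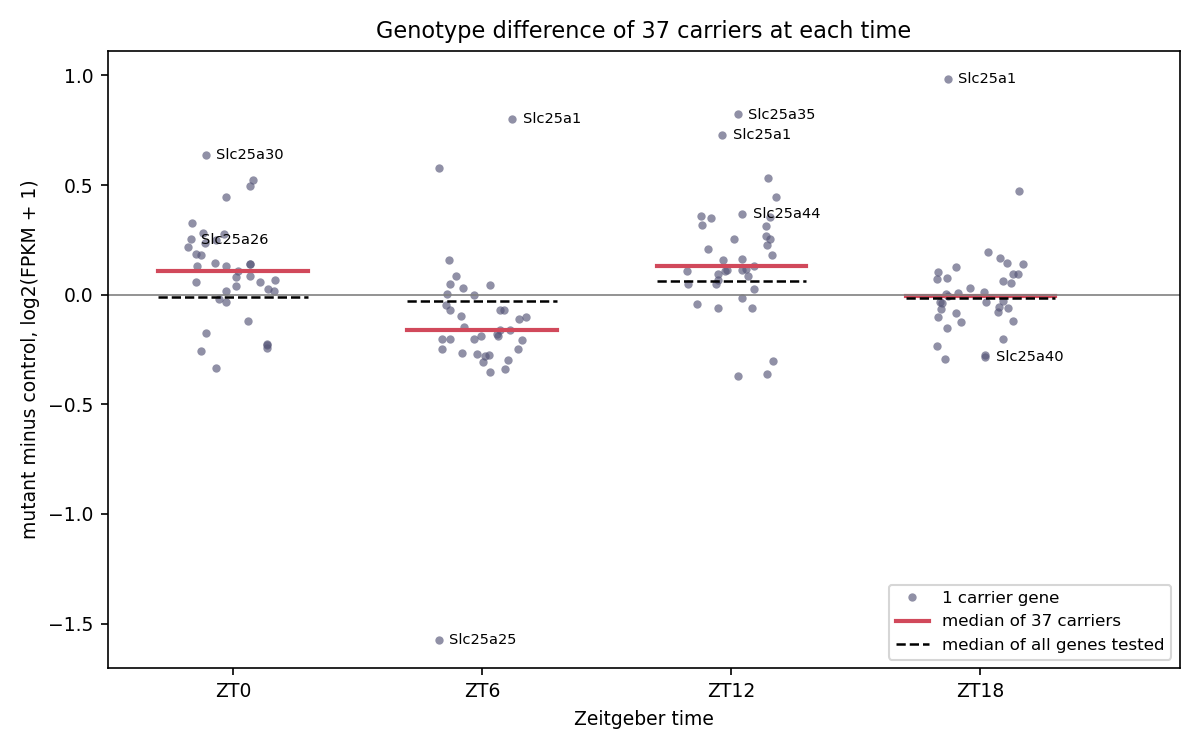
Difference between mutant and control on log2(FPKM + 1) at each Zeitgeber time, 1 point per carrier (37), with the median of the carriers in red and that of all 11975 genes as a dashed black line. The carrier with the smallest p at each time and those beyond 0.6 in size are named. The carriers lie mostly above 0 at ZT0 and ZT12 and mostly below 0 at ZT6, with Slc25a25 lowest at -1.57.

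At ZT6 the largest difference was that of Slc25a25. Control values were 17.4, 17.5, 28.9 and 36.4 FPKM, and mutant values were 4.03, 4.47, 6.18 and 23.6 FPKM. The first 3 mutant libraries were below every control, and the last lay within the control range. The difference was -1.57 ± 0.46 on the log2 scale (adjusted p = 0.471 with limma), and -2.09 without the mutant library at 23.6 FPKM (adjusted p = 0.158). It passed the test only when libraries were weighted by their quality (-1.60, adjusted p = 0.0424). At the other times the difference was -0.23 at ZT0, -0.30 at ZT12 and -0.12 at ZT18, each ± 0.46.

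Slc25a16, a carrier linked to coenzyme A, came closest to a difference that depends on time. At ZT6 its control values were 14.7, 15.1, 16.3 and 16.9 FPKM and its mutant values 10.7, 12.6, 13.03 and 14.5, so that the genotypes did not overlap. At ZT12 the order was turned, also without overlap, with 11.8, 12.2, 13.3 and 13.3 FPKM in controls and 14.5, 15.5, 15.7 and 18.3 in mutants. From ZT0 to ZT18 the successive differences were 0.24, -0.30, 0.31 and 0.09, each ± 0.09. The dependence on time did not pass the test (adjusted p = 0.196 with limma), and no gene of the 11975 did (0% called). At an unadjusted p under 0.05 it held 9 carriers, or 24.3%, and 1684 of all genes, or 14.1%. Without the mutant ZT0 library numbered 3, Slc25a16 was called (adjusted p = 0.0281), as were 93 genes in all. Slc25a44, a carrier of branched-chain amino acids, was next, with 8.05 to 9.84 FPKM in controls and 9.04 to 13.9 in mutants at ZT12, a difference of 0.37 ± 0.10 (adjusted p = 0.121). Without the mutant ZT0 library numbered 2, the ZT12 differences of Slc25a44 and Slc25a16 were called (adjusted p = 0.0425 and 0.0486), among 262 genes in all. Without the mutant ZT12 library numbered 3, that of Slc25a16 was called (adjusted p = 0.0463) among 447 genes. Slc25a46, an outer membrane protein that acts in mitochondrial dynamics, followed in the dependence on time, with a difference of -0.25 ± 0.09 at ZT6 and 0.25 ± 0.09 at ZT12 (adjusted p = 0.233 for the dependence). The NAD carrier Slc25a51 ranged from 21.3 to 26.6 FPKM in controls and from 25.2 to 33.8 in mutants at ZT12, a difference of 0.32 ± 0.11 (adjusted p = 0.164).

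At ZT0 the smallest p belonged to Slc25a26, the S-adenosylmethionine carrier (0.25 ± 0.10), Slc25a16, and the glutathione carrier Slc25a39 (0.33 ± 0.14), with adjusted p from 0.537 to 0.554. Slc25a39 was between 31.6 and 33.7 FPKM in controls at that time and between 31.2 and 52.7 in mutants. At ZT18 they belonged to Slc25a40 (-0.28 ± 0.11), Slc25a15 (-0.20 ± 0.10) and Slc25a27, an uncoupling-protein-like carrier (-0.28 ± 0.13), all at an adjusted p of 0.9995. The carriers were also counted in 12 groups by role, without a test. All tested members were higher in mutants in 6 groups at ZT0, and in none at ZT6. At ZT6 no member was higher in 6 groups, among them the 4 tested carriers of basic, branched-chain and small amino acids. Other groups did not share this order. Of 3 calcium-regulated ATP-Mg/phosphate carriers 1 was higher at ZT0 and 2 at ZT6. Of 3 uncoupling-protein-like carriers 1 was higher at ZT0 and 1 at ZT6. The largest differences in the plot by time that these rules did not name were those of Slc25a1 (0.80 at ZT6, 0.73 at ZT12 and 0.98 at ZT18) and Slc25a35 (0.82 at ZT12), and none was called.

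Some carriers varied between mice of the same group, and for Slc25a1 and Slc25a10 this spread moved with adipocyte genes. Among the 37 tested carriers, the largest median coefficients of variation within groups were 92.4% for Slc25a1, 40.2% for Slc25a10 and 38.1% for the rhythmic Slc25a25, which was not related to those genes (r = 0.11 over 32 libraries, adjusted p = 0.789 for the slope with limma). Slc25a1, the citrate carrier that supplies fatty acid synthesis, ranged from 3.21 to 79.2 FPKM. Control muscle stood at 10.97 ± 6.82 FPKM and mutant muscle at 24.2 ± 23.2 FPKM (SD, n = 16 each), a difference of 0.74 ± 0.39 on the log2 scale (adjusted p = 0.756 with limma). Slc25a1 was chosen for this account after its values were seen, as were Slc25a5, Slc25a17, Slc25a23 and Slc25a35 below.

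For each library an adipocyte score was taken as the mean log2(FPKM + 1) of 10 markers such as Adipoq and Plin1. Among these markers was Ucp1, itself a gene of the carrier family with another symbol, which ranged from 0.418 to 165 FPKM. The score without Ucp1 was not tested. The relation was added after the data were seen. In a fit with 1 mean per group, 7 of 37 carriers increased with this score, or 18.9%, against 9.55% of all genes related to it in either direction (limma, adjusted over all genes). The slope of Slc25a1 was 1.14 ± 0.09 per unit of the score (adjusted p = 4.65e-10), and that of Slc25a10 was 0.45 ± 0.05 (adjusted p = 4.33e-08). The others were Slc25a5 (0.28 ± 0.04), the orphan carrier Slc25a35 (0.33 ± 0.07), the ATP-Mg/phosphate carrier Slc25a23 (0.15 ± 0.03), the peroxisomal carrier Slc25a17 (0.15 ± 0.04) and Slc25a22 (0.24 ± 0.06), with adjusted p from 4.39e-05 to 0.00728. Over 32 deviations from group means, Slc25a1 gave r = 0.92 and rho = 0.91 (p = 1e-05 each, the smallest that 100000 permutations within groups can give), and r = 0.90 without the 2 libraries farthest from the median score. For Slc25a10 these were r = 0.89 and rho = 0.91 (p = 1e-05 each by permutation), and r = 0.85 without those libraries. In all, 74 such relations were computed, for 37 carriers and the adipocyte and slow-fibre scores. No carrier was related to the slow-fibre score, against 0.1% of all genes, and 12 genes in all were. Slc25a4 and the other abundant carriers Slc25a3, Slc25a11 and Slc25a12 were not among the 7.

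**Figure D4:**
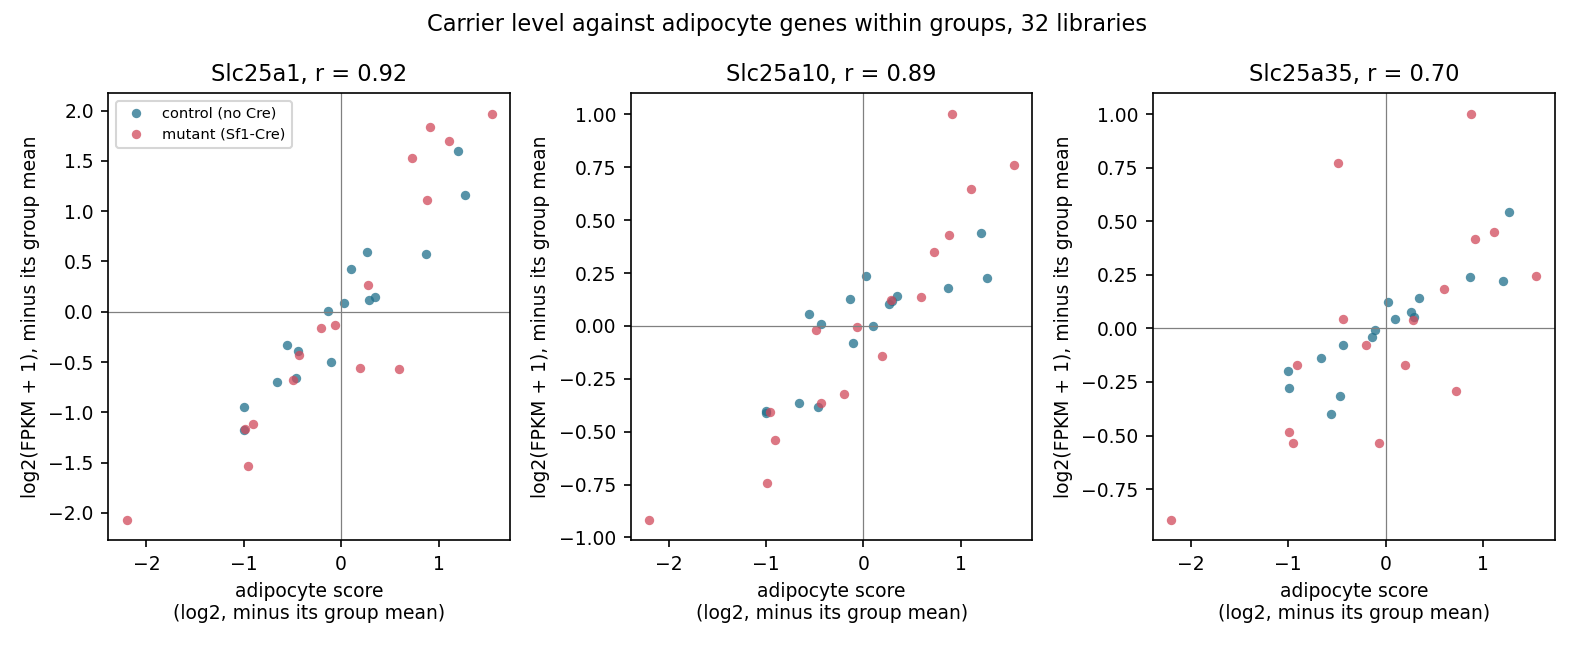
Level of Slc25a1, Slc25a10 and Slc25a35 on log2(FPKM + 1) against the adipocyte score of the same library, both as deviations from the mean of its group (32 libraries, coloured by genotype). Points of both genotypes rise together, most closely for Slc25a1 with r = 0.92.

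The 10 markers of the adipocyte score were all higher in mutants over all times (median 0.43 on the log2 scale), and none was called. Their summed FPKM ranged from 495 to 1642 in controls and from 438 to 2693 in mutants, and none was at 0. With adipocyte and lymphocyte scores as covariates, the genotype difference of Slc25a10 was 0.27 (adjusted p = 0.733), against 0.48 without them. What part either score has in that difference was not tested. All 11 lymphocyte markers were also higher in mutants (median 0.57) and all 11 slow-fibre markers lower (median -0.30), again with none called.

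Genes that work beside these carriers were described from 4 lists, each with 1 gene rhythmic over both genotypes. With 11.4% of all genes rhythmic, a single gene in lists of 5 to 18 sets no list apart. Of 5 genes of the carrier family with other symbols, 1 had a rhythm over both genotypes, the muscle uncoupling protein gene Ucp3. Its mean was 29.7 ± 9.31 FPKM at ZT6 and 50.8 ± 11.8 at ZT12 (SD, n = 8 each), with an amplitude of 0.81 ± 0.10 and a peak at ZT 16.4 (adjusted p = 4.27e-06 with limma). It was rhythmic in controls and in mutants too. Of 18 other mitochondrial transporters, 1 was rhythmic over both genotypes, the pyruvate carrier subunit Mpc1, with 50.9 ± 11.1 FPKM at ZT0 and 32.1 ± 5.62 at ZT12, an amplitude of 0.37 ± 0.05 and a peak at ZT 22.0 (adjusted p = 8.44e-05). Of 12 tested genes for the import of carriers, Tomm20, a receptor of the outer membrane, had an amplitude of 0.15 ± 0.03 with a peak at ZT 23.8 (adjusted p = 0.00816). Timm10, a chaperone of the intermembrane space, was called in the mutant fit (0.22 ± 0.05, adjusted p = 0.0195), while the difference between genotypes was not called. Of 9 tested enzymes of the shuttles, the cytosolic aspartate aminotransferase Got1 had an amplitude of 0.15 ± 0.04 (adjusted p = 0.0373). Over all times the genotype difference was called for 0 genes of each list.

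Reads shared with other genes could bear on some of these values. All 46 rows overlapped the gene of the same symbol in the GENCODE M21 annotation, and 8 overlapped another coding gene. The row of Slc25a2 did so on the same strand as well. Slc25a25 (chromosome 2, 32414486 to 32455476, mm10) overlaps Naif1 and Slc25a35 overlaps Rangrf, each on the opposite strand. Slc25a23 overlaps Crb3, Slc25a26 overlaps Lrig1 and Slc25a46 overlaps another coding gene, also on the opposite strand. The same holds for Slc25a21 and Slc25a53, both below the filter. The libraries were made with a stranded kit, but whether strand was used in the counting is not given in the sources used here.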

How the data were processed

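RNA from gastrocnemius of 32 mice was read by single-end sequencing of stranded mRNA libraries, per the labels' protocols. The authors deposited 1 table of FPKM per gene and library. The build was mm10, per the submitters' processing notes, and the aligner, the quantifier and the annotation are not given in the sources used here. Columns name genotype, time and a library number that no label ties to a mouse. Differences were computed on log2(FPKM + 1), which understates changes of low genes, with limma 3.58.1 in R 4.3.3 (1 mean per group, a trended prior with 3.37 degrees of freedom beside the 24 of the residuals). P-values are 2-sided for single contrasts and slopes, and come from F tests for rhythms and for dependence on time. They were adjusted by Benjamini-Hochberg over 11975 genes, except those by permutation, which are not adjusted. The limma tests set each effect against the spread between mice within groups, pooled over all groups. FPKM carry no counts, so absolute depth is unknown: among 767 low genes, 67.5% of values came within 0.1 of a whole number of steps, too few to recover reads. Named were carriers called in any test, the 3 with the smallest p in each test, the 8 with the highest mean and any listed at 0 in some libraries while above 10 FPKM in others (none was), and from the pathway lists the genes past the threshold. Results of 1 carrier are not reported here by name. The lists and carriers were chosen with earlier results of these data known. Alternatives were other pseudocounts, filters, scalings, covariates and weights, and leaving out each library. The fits were tested on simulated data.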

Additional observations from a re-analysis of the deposited data

Results flagged for a closer look

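For the named carriers, 9 of 192 groups of 4 libraries held 1 value far from the other 3, and chance alone gives about 1 in 20. Slc25a25 in mutants at ZT6 had 1 library at 23.6 FPKM against 4.03 to 6.18 in the others. Slc25a10 had 1 at 9.86 FPKM in mutants at ZT6, with the next at 3.91, and 1 at 1.62 in controls at ZT12, with the next at 2.75. Slc25a12 had a low value of 167 FPKM in controls at ZT12, with the others from 206 to 209. In controls at ZT18 the low values were 126 FPKM for Slc25a11, 4.48 for Slc25a27 and 19.8 for Slc25a46. The remaining high values were 3449 FPKM for Slc25a4 in controls at ZT0 and 3.97 for Slc25a40 in mutants at ZT12.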

How the results depend on the processing

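No paired analysis was possible because the library numbers in the table are not tied to mice or to any shared factor. No result of a carrier called in a test, or among its smallest p, changed direction under any alternative that was run. Counts of directions over the family, which were not tested, turned in places. Over all times, 24 carriers were higher in mutants and 13 lower (median 0.02 on the log2 scale), with 51.3% of all genes higher. Without the 2 mutant libraries lowest in fast-fibre score, 16 carriers were higher and 21 lower (median -0.005), with 47.5% of all genes higher. From ZT6 to ZT18, 20 carriers rose and 17 fell (median 0.005), and 17 rose and 20 fell with quantile normalisation (median -0.006). Of all genes, 49.8% and 48.6% rose in these 2 fits. Quality weights for libraries gave the most additional calls: 2 carriers (of 232 genes called in all) for the genotype difference at ZT6, 1 (of 42) for its dependence on time, 9 (of 2233) for the rhythm in controls, 8 (of 752) for that in mutants and 9 (of 1996) for ZT18 against ZT6. With the slow-fibre score as a covariate, 1 carrier (of 438 genes called in all) was rhythmic in controls. Leaving out 1 library at a time gave 0 to 2 carriers for the genotype difference at ZT12 (2 to 447 genes in all). For its dependence on time it gave 0 to 1 (0 to 93 genes in all). The adipocyte relation, chosen after the data were seen, held for 11 carriers with quantile normalisation and for 6 to 9 with 1 library left out. The share of all genes was not counted in these fits, so the carriers cannot be set against it. Without the 2 mutant libraries lowest in fast-fibre score, 7 carriers had a rhythm over both genotypes, for which the share of all genes is not given here. In that fit 0 carriers had a genotype difference over all times or at any time, against 2 to 7 genes in all. The causes were not tested. Among the tested carriers named above, a filter at a mean of 5 FPKM left Slc25a10, Slc25a14, Slc25a29, Slc25a34, Slc25a35 and Slc25a40 untested. Depth is unknown, so precision rests on 4 mice per group.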
